A study of Rattus norvegicus with 90 samples.

Results

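The highest intravenous dose of human umbilical cord mesenchymal stromal cells (HuMSC) was examined in brain microglia of rat pups at postnatal day (P) 7. The libraries were chosen by their titles, 3 with the dose and 3 without, which is 6 of the 90 libraries in the series, and all genes in them were read. The 3 HuMSC125 libraries came from pups given IL-1β and then 125 M cells per kg by vein at P5. The 3 injured libraries came from pups given IL-1β and then phosphate-buffered saline in place of cells. All pups were Wistar Han males. IL-1β was given intraperitoneally at 20 µg per kg over the first days of life, up to P5, and tissue was taken 48 h after the cells. The same experiment held 3 libraries each at 20 and 50 M cells per kg (HuMSC20, HuMSC50) and 3 of pups given saline without IL-1β (control), and a parallel P7 experiment used the intranasal route. Per the labels' protocols, brains were perfused, freed of olfactory bulbs and cerebellum, dissociated with enzymes and enriched with beads against CD11b/c, so the fraction is enriched for microglia, not purified to single cells. The labels do not state whether replicates of 1 group are different pups, and each p-value is therefore a measure of sample-to-sample spread that may be technical.

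Microglia are the resident macrophages of the brain. In the first postnatal week they prune synapses and take up dying cells, and systemic IL-1β at that age is used to model inflammatory injury of the immature white matter. Mesenchymal stromal cells act largely through secreted factors that damp cytokine production in macrophages. A central switch of that production is NF-kB, a transcription factor that turns on cytokine, chemokine and adhesion genes together with its own inhibitors. Immediate early genes such as Fosb and Klf4 are switched on within minutes by many stimuli, and enzymatic dissociation of brain tissue is one of them.

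The 3 HuMSC125 libraries did not resemble one another in the amount of neuron RNA. The mean log2 CPM (counts relative to the library's total, TMM-scaled) of 24 pan-neuronal markers was 5.09, 5.23 and 2.83 in HuMSC125 replicates 1, 2 and 3, against 1.73, 1.37 and 1.75 in the injured libraries. Replicates 1 and 2 thus stood far above replicate 3, and replicate 3 stood above every injured library. The 150 matched genes of 8 neuron lists took 0.908%, 1.04% and 0.242% of counts in HuMSC125 libraries and 0.126%, 0.131% and 0.139% in injured libraries. Of these genes, 139 were above 0 in all 6 libraries, and Npy, Fev and Dbh, which mark subsets of neurons, were at 0 in all 6. Of the other 9 libraries of the experiment, HuMSC20 replicate 1 was as rich, with a pan-neuronal mean of 5.16, and the rest lay between 1.38 and 3.27. Mitochondrially encoded genes took 14.6%, 16.5% and 6.35% of counts in HuMSC125 libraries, against 5.97%, 4.23% and 5.97% in injured libraries. The homeostatic microglia genes, which check the labelled cell type, took 3.67%, 3.12% and 4.09% against 4.27%, 4.34% and 4.35%, and 29 of 30 were above 0 in every one of the 6 libraries. Total counts were 16.0, 21.3 and 27.9 M in HuMSC125 and 26.5, 34.3 and 21.0 M in injured libraries. In bulk samples, fewer cells of a type and less RNA per cell cannot be told apart.

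**Figure D1:**
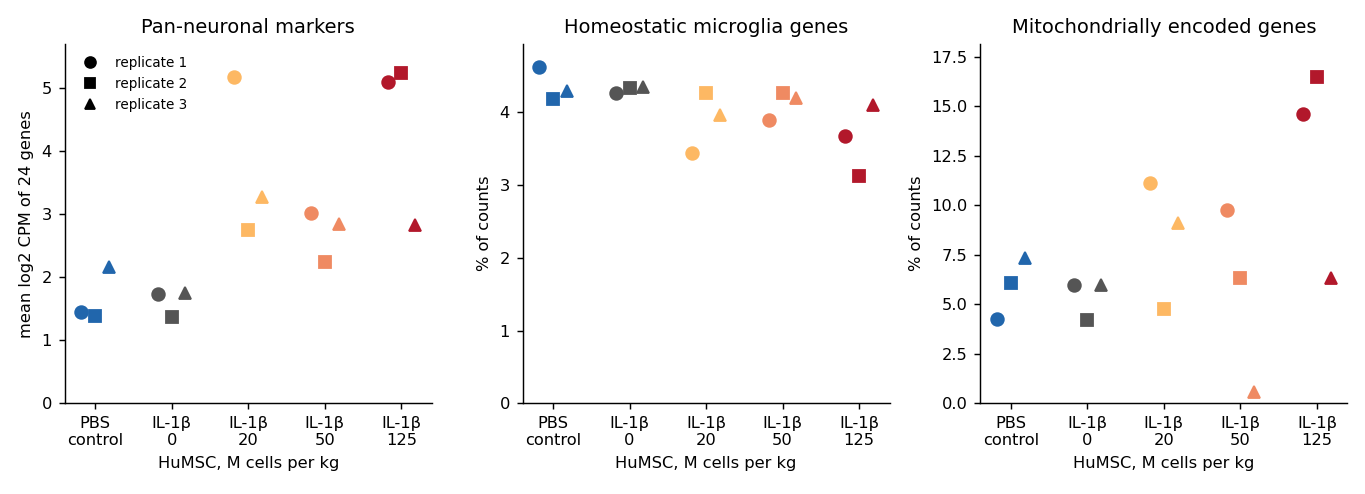
The 15 libraries of the P7 intravenous experiment by dose (M cells per kg, horizontal), with the mean log2 CPM of 24 pan-neuronal markers, the percent of counts in homeostatic microglia genes and the percent in mitochondrially encoded genes (vertical axes); each point is a library and the shape gives its replicate number. HuMSC125 replicates 1 and 2 reach pan-neuronal means of 5.09 and 5.23, and replicate 3 lies at 2.83.

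Relative to injured libraries, 949 of 14698 tested genes were called higher in HuMSC125 (6.46%) and 125 were called lower (0.85%), at an adjusted p under 0.05 in edgeR's quasi-likelihood test with Benjamini-Hochberg adjustment. The higher genes included neuron genes and genes of the oligodendrocyte lineage, and 825 of the 949 were in none of the gene lists read here. The lower genes included cytokine, NF-kB and immediate early genes, and 101 of the 125 were in none of the lists. The smallest adjusted p was 0.0236, so the calls lie close to the threshold as a group, and they depend on single libraries. Without HuMSC125 replicate 1, without HuMSC125 replicate 2, without injured replicate 1 or without injured replicate 2 no gene was called, with 1927 to 2442 genes at an unadjusted p under 0.05. Without injured replicate 3, 6 genes were called, all lower, and without HuMSC125 replicate 3, 2127 were called. Without the 3 neuron-rich libraries (HuMSC125 replicates 1 and 2 and HuMSC20 replicate 1), where HuMSC125 is 1 library assumed to vary like the other groups, no gene was called, and 753 had an unadjusted p under 0.05.

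Of the 135 neuron list genes tested, 94 were called higher and 0 lower, against 6.46% and 0.85% of all tested genes. By role, 21 of 24 pan-neuronal genes rose, as did 16 of 21 presynaptic, 14 of 21 postsynaptic, 11 of 17 voltage-gated channel and 16 of 22 axonal transport and guidance genes. Both main transmitter classes were among them, with 10 of 15 glutamatergic and 6 of 10 GABAergic genes. None of the 5 tested genes of other transmitter systems was called, with a median log2 difference of -0.20. The medians of the first 7 lists lay between 2.16 and 3.41 on the log2 scale, against -0.03 for all tested genes.

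Kif1a, the motor that carries synaptic vesicle precursors along axons, was measured at 2365, 2991 and 345 CPM in HuMSC125 libraries and 62.9, 55.2 and 85.3 CPM in injured libraries, a log2 difference of 4.81 ± 0.91 (SE). Akap6, an anchoring protein for protein kinase A, had the largest rise that the naming rule allowed, 5.11 ± 0.90, with 347, 419 and 43.7 CPM against 7.08, 7.23 and 9.17 CPM. In both genes every HuMSC125 library exceeded every injured one, and replicate 3 was far below the other HuMSC125 libraries. Map2, a dendritic microtubule protein, was at 467, 569 and 88.5 CPM in HuMSC125 and 26.6, 26.5 and 33.0 CPM in injured libraries. Dcx, the microtubule protein of migrating young neurons, was at 205, 262 and 37.2 CPM against 11.1, 8.14 and 10.0 CPM. The same order of libraries returned in genes of single transmitter classes. Slc17a7, the vesicular glutamate transporter of cortical excitatory neurons, was at 22.4, 20.9 and 4.11 CPM in HuMSC125 and 1.19, 1.33 and 1.36 CPM in injured libraries. Gad2, which makes GABA in inhibitory neurons, was at 17.8, 21.4 and 4.11 CPM against 0.924, 1.5 and 2.01 CPM.

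Among the 6 HuMSC125 and injured libraries, genes of the oligodendrocyte lineage, like the neuron genes, were highest in HuMSC125 replicates 1 and 2. The neuron-rich HuMSC20 replicate 1 was as high. Its mean log2 CPM of the precursor list was 5.54, against 5.39 and 5.32 in HuMSC125 replicates 1 and 2. In the oligodendrocyte precursor list 11 of 13 tested genes rose, in the oligodendrocyte list 9 of 16 and in the radial glia and progenitor list 4 of 13. In the astrocyte list 1 of 15 rose, near the 6.46% of all tested genes. The summed level of the precursor list was 861, 902 and 329.6 CPM in HuMSC125 and 182, 155 and 227 CPM in injured libraries, with the marker Neu4 at 0 in all 6. The astrocyte sum was 1142, 1462 and 1402 CPM against 930.4, 1093 and 1207 CPM, so that these groups overlapped and replicate 3 was not the lowest HuMSC125 library. Olig2, the transcription factor that specifies the lineage, was at 32.0, 25.7 and 6.39 CPM in HuMSC125 and 2.39, 2.04 and 3.56 CPM in injured libraries. Mbp, a structural protein of myelin, was at 617, 521 and 74.3 CPM against 30.4, 29.3 and 40.1 CPM. Olig2 and Mbp were lowest in replicate 3 among HuMSC125 libraries, and still above all injured libraries there. Fabp7, a fatty acid binding protein of radial glia, had a flatter profile, with 126, 221 and 92.4 CPM against 71.8, 46.4 and 68.5 CPM (log2 difference 1.23 ± 0.29). Ncan, a proteoglycan of the perineuronal matrix, was at 64.1, 122 and 85.2 CPM against 37.4, 40.9 and 41.3 CPM, and was not lowest in replicate 3. Endothelial (0 of 12), mural (0 of 12) and fibroblast or stromal genes (0 of 14) were not called in either direction, against 6.46% of all tested genes called higher and 0.85% lower.

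**Figure D2:**
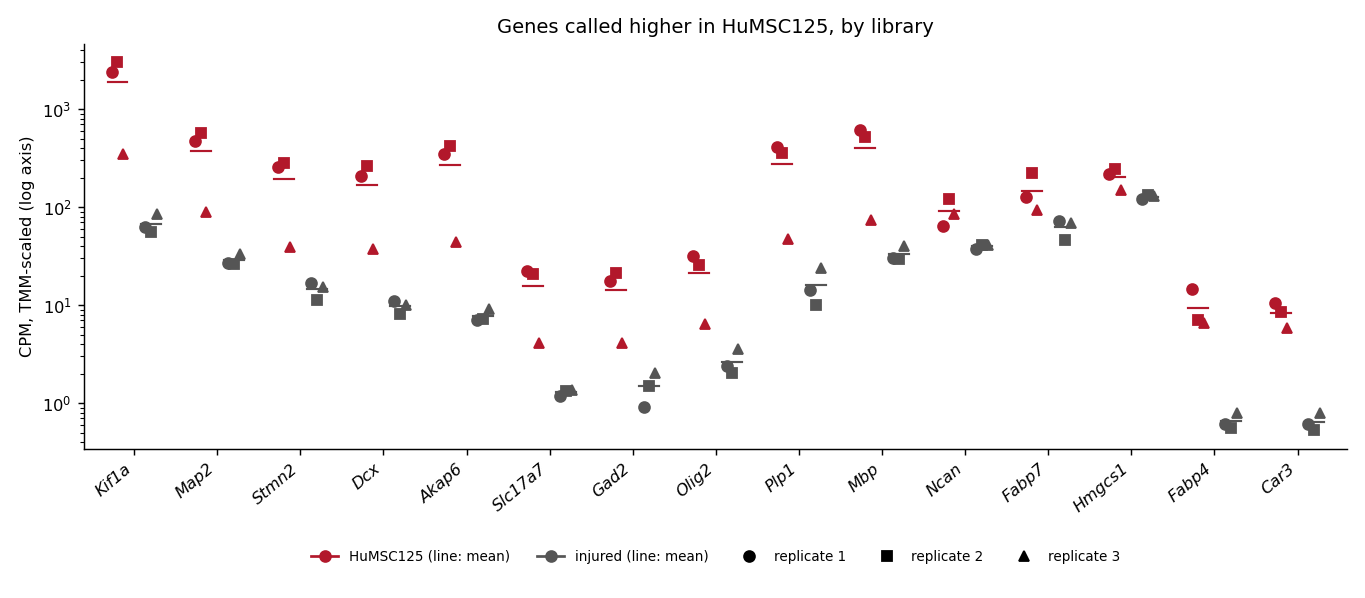
Genes called higher in HuMSC125, in CPM on a log axis; each point is a library (HuMSC125 left, injured right of each gene) with its replicate shape, and lines are means of 3. HuMSC125 replicate 3 lies far below replicates 1 and 2 for the neuron and oligodendrocyte genes (Kif1a 345 against 2365 and 2991 CPM), but not for Ncan, Fabp4 and Car3.

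The higher genes as a group tracked the neuron-rich libraries. Over the 949 higher genes, the median log2 difference from the injured mean was 2.98 for HuMSC125 replicates 1 and 2 and 1.00 for replicate 3. Replicate 3 was the lowest HuMSC125 library for 941 of them and above every injured library for 931. With the pan-neuronal level of each library added to the fit as a covariate, no gene was called, 230 had an unadjusted p under 0.05, and 484 of the 949 kept their direction, with a median of 0.01. The covariate overlaps with the grouping, since the lowest HuMSC125 library (2.83) lies above the highest injured one (1.75). Without the 3 neuron-rich libraries, 930 of the 949 were tested and all 930 kept their direction, with a median of 1.051, 480 at an unadjusted p under 0.05 and none called. Replicate 3 and the injured libraries took part in choosing the genes, so the kept direction is no sign of stability. Relative to the same injured libraries that chose them, these genes had a median of 0.15 in control (657 of 949 above 0), 1.68 in HuMSC20 and 0.79 in HuMSC50. HuMSC20 holds the neuron-rich replicate 1, with a pan-neuronal level of 5.16 against 2.75 and 3.27 in its other replicates (mean log2 CPM).

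A promoter in the higher group can be shown beside these values. The factor REST silences neuron genes in other cell types by binding a site called RE1. Promoters were taken from RefSeq (build GRCr8) as the 250 bases before the gene start, matched by symbol for 10563 tested genes, of which 667 were called higher and 103 lower. The RE1 half-site TTCAGCACC, searched on both strands, was in 10 of 667 promoters of higher genes (1.5%), in 0 of 103 of lower genes and in 0.341% of all 10563. Elavl4, which encodes an RNA-binding protein of neurons, is one of the 10 and was chosen after its values were seen. It was at 17.4, 15.6 and 3.59 CPM in HuMSC125 and 1.23, 0.973 and 1.54 CPM in injured libraries. Its window, chr5:130367664-130367913 on the minus strand, is printed with the half-site in capitals, here read on the opposite strand.
Elavl4: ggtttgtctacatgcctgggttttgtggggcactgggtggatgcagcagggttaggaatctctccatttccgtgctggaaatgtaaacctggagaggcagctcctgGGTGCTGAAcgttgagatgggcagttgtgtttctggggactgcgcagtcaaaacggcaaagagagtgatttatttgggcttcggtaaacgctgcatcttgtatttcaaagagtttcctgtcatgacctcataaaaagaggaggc

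For the 125 lower genes the 3 HuMSC125 libraries lay closer together. Their median log2 difference from the injured mean was -0.78 for HuMSC125 replicates 1 and 2 and -0.57 for replicate 3, and replicate 3 was below every injured library for all 125. Replicate 3 was the highest of the HuMSC125 libraries for 95 of them. A small difference passes the test only where libraries agree, so the closeness of the 3 libraries is partly set by the calling. Without the 3 neuron-rich libraries all 125 kept their direction, with a median of -0.58 and 65 at an unadjusted p under 0.05, and none was called. As for the higher genes, replicate 3 took part in choosing them, so the kept direction is no sign of stability. With the neuron covariate all 125 kept their direction, with a median of -0.43 and 39 at an unadjusted p under 0.05. That fit holds the same libraries that chose the genes, and its covariate overlaps with the grouping, so it is no independent check. Scaling the libraries by their homeostatic microglia counts moved the median of all genes to 0.18 and left 40 of the 125 called.

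**Figure D3:**
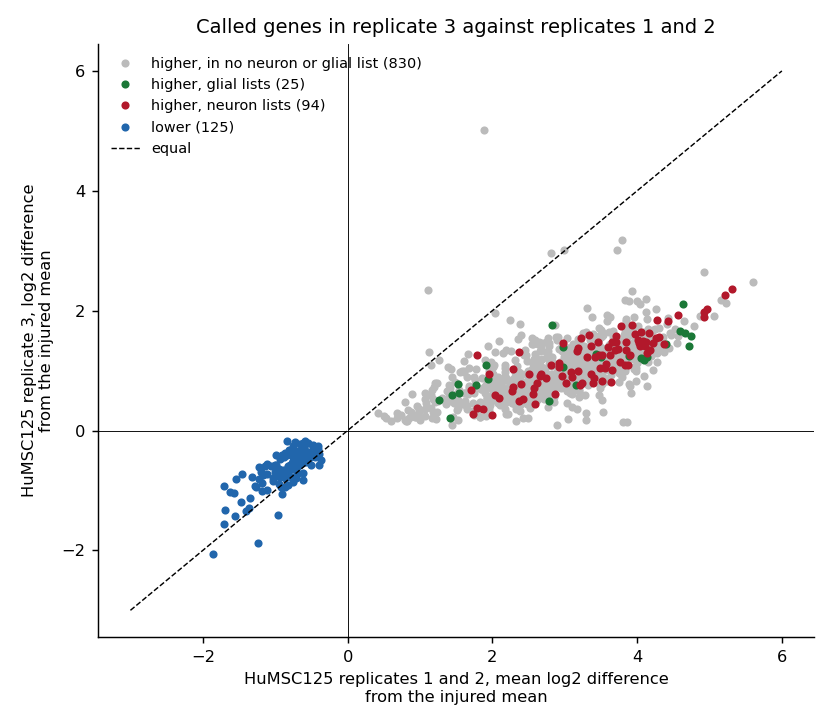
Each of the 1074 called genes, with the mean log2 difference of HuMSC125 replicates 1 and 2 from the injured mean (horizontal) against that of replicate 3 (vertical); the dashed line marks equal values. The 949 higher genes lie mostly far under the line (medians 2.98 and 1.00), and the 125 lower genes lie nearer to it (medians -0.78 and -0.57).

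In the list of inflammatory cytokines and NF-kB targets, 9 of 25 tested genes fell, against 0.85% of all tested genes, and 0 rose, with a median log2 difference of -0.61. The mean log2 CPM of the list was 6.25, 6.20 and 6.44 in HuMSC125 and 6.99, 7.02 and 6.82 in injured libraries. In control libraries it was 6.78, 6.75 and 6.67, so the HuMSC125 libraries lay below the control level too. In 22 of the 25 every HuMSC125 library was below every injured one, against 14.3% of all tested genes, and 14.8% of all tested genes showed the opposite separation. Tnfaip3, the ubiquitin-editing enzyme A20 that ends NF-kB signalling, was at 173, 198 and 307 CPM in HuMSC125 and 549, 645 and 443 CPM in injured libraries, a log2 difference of -1.27 ± 0.22. Il1b, the cytokine whose protein was injected, was at 286, 345 and 370 CPM against 627, 655 and 478 CPM (-0.81 ± 0.16). Ptgs2, the inducible cyclooxygenase, was at 9.58, 7.33 and 8.80 CPM in HuMSC125 and 23.5, 21.4 and 20.1 CPM in injured libraries. In these genes the groups did not overlap, and replicate 3 was the highest HuMSC125 library for Tnfaip3 and Il1b and between the others for Ptgs2. Cxcl10, a chemokine for T cells, was at 8.92, 7.69 and 9.08 CPM against 17.3, 19.1 and 17.9 CPM. Ccl3, a chemokine for monocytes, was at 638, 428 and 526 CPM in HuMSC125 and 892, 949 and 856 CPM in injured libraries. Icam1, an adhesion molecule for leukocytes, was at 318, 292 and 340 CPM against 529, 553 and 521 CPM. The other members that fell were Nfkbiz and Birc3, which act within NF-kB signalling, and Cxcl2, a chemokine for neutrophils.

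Without the neuron-rich libraries the log2 difference was -0.82 for Tnfaip3, -0.66 for Il1b, -1.29 for Ptgs2 and -0.99 for Cxcl10, and with the neuron covariate it was -0.92, -0.46, -1.19 and -0.58 for the same 4 genes in that order. Over the whole list the median was -0.48 without those libraries and -0.23 with the covariate. These 4 genes kept their direction under both, Ptgs2 at about the full size and Il1b at a smaller size. All 4 were called on the same HuMSC125 and injured libraries, replicate 3 included, so the kept direction is no sign of stability. Below 0 were 25 of 25 list members in all libraries, 26 of 26 without the neuron-rich libraries and 21 of 25 with the covariate, and no member was called under either setting. Among the lists of other blood or immune cells, those of neutrophils and mast cells had the lowest medians. The T and NK, B cell, border-associated macrophage, monocyte and erythroid lists had -0.42, -0.25, -0.19, -0.08 and 0.09 in that order. The neutrophil list had a median of -0.86, with all 11 tested genes below 0. In 8 of them the groups were lower with no overlap, against 14.3% of all tested genes. Its summed level was 181, 184 and 201 CPM in HuMSC125 and 207, 255 and 249 CPM in injured libraries, with 12 of 15 genes above 0 in all 6 libraries and Ltf at 0 in all 6. The mast cell list had a median of -0.70, with 9 of 11 genes below 0 and 4 lower with no overlap, against the same 14.3%. Its sum was 145, 97.0 and 160.1 CPM in HuMSC125 and 152, 275 and 168 CPM in injured libraries, with all 11 genes above 0 in all 6. The part of either cell type in the lower NF-kB list was not tested. Genes outside the lists but with known links to this pathway, chosen after their values were seen, were the NF-kB subunit Rel (-0.76 ± 0.21), the nuclear inhibitor Nfkbid (-0.73 ± 0.17), the maturation marker Cd83 (-0.52 ± 0.14), the purinergic receptor P2rx7 (-0.86 ± 0.22) and the immune checkpoint ligand Cd274 (-0.86 ± 0.23).

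In the immediate early and dissociation list, 6 of 28 tested genes fell, again against 0.85% of all tested genes, and 0 rose, with a median log2 difference of -0.48. The median of this list was -0.32 without the neuron-rich libraries and -0.09 with the neuron covariate. Below 0 were 26 of 28 members in all libraries and 18 of 28 with the covariate. Klf4, a zinc finger factor, had the largest fall of the list, with 55.1, 56.9 and 80.4 CPM in HuMSC125 and 189, 185 and 132 CPM in injured libraries (-1.39 ± 0.20). Fosb, a subunit of AP-1, was at 286, 296 and 485 CPM against 852, 860 and 702 CPM, and Atf3, a stress-induced factor, at 260, 263 and 258 CPM against 580, 513 and 404 CPM. The groups were apart in all 3 genes. Nr4a2, an orphan nuclear receptor, was at 110, 116 and 150 CPM in HuMSC125 and 297, 327 and 191 CPM in injured libraries. Control libraries, which had no IL-1β, held 80.5, 93.4 and 93.0 CPM of Nr4a2, so the HuMSC125 libraries lay between them and the injured ones. Klf6 and Dusp1, a phosphatase that switches off MAP kinases, completed the 6. In the glucocorticoid list 3 of 12 fell, against the same 0.85%, namely Dusp1, the clock gene Per1 and the kinase Sgk1. Sgk1 was at 251, 223 and 276 CPM in HuMSC125 and 419, 443 and 369 CPM in injured libraries, while control libraries held 869, 773 and 791 CPM, so this fall ran away from the control level. The part of tissue dissociation in the levels of the immediate early genes was not tested.

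**Figure D4:**
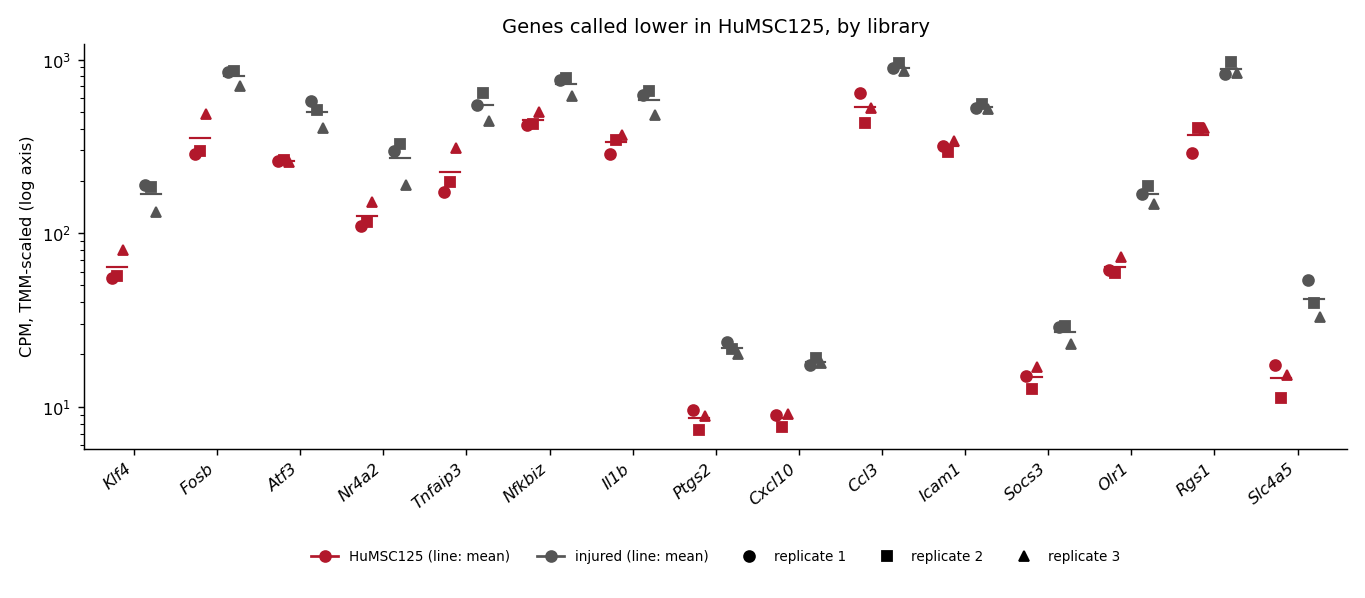
Genes called lower in HuMSC125, in CPM on a log axis; each point is a library (HuMSC125 left, injured right of each gene) with its replicate shape, and lines are means of 3. The HuMSC125 libraries lie below the injured libraries for every gene drawn, replicate 3 included (Klf4 80.4 against 132 to 189 CPM).

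Several of the largest falls belong to neither list. Slc4a5, a sodium bicarbonate transporter that is abundant in choroid plexus, was at 17.4, 11.2 and 15.3 CPM in HuMSC125 and 53.5, 39.5 and 32.7 CPM in injured libraries (-1.52 ± 0.32). The choroid plexus and ependymal list had no called member among 9, with a median of -0.39. Olr1, a receptor for oxidised lipoprotein, was at 61.0, 58.6 and 72.7 CPM against 168, 187 and 147 CPM, and Rgs1, which dampens chemokine receptor signalling, at 291, 406 and 402 CPM against 830, 963 and 837 CPM. For Rgs1 the difference was -1.26 ± 0.17, and -1.12 without the neuron-rich libraries. Socs3, the feedback inhibitor of cytokine receptors, was at 15.0, 12.7 and 16.9 CPM in HuMSC125 and 28.6, 29.3 and 23.1 CPM in injured libraries. Ch25h, which oxidises cholesterol, Csf1, a growth factor of macrophages, and Il10ra, a receptor chain for interleukin-10, fell by 1.15, 0.66 and 0.63 on the log2 scale. The neutrophil granule gene Ngp and the mast cell protease Mcpt2 also fell, the second with near-identical copies that make its count uncertain. Of the neutrophil list 1 of 11 and of the mast cell list 1 of 11 was called, against 0.85% of all tested genes called lower.

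The 250 bases before the gene start were also searched for motifs of other transcription factors. Whether these factors act on the lower genes was not tested. The kB consensus, the site of NF-kB, was in 11 of 103 matched promoters of lower genes (10.7%), in 34 of 667 of higher genes (5.1%) and in 4.35% of all 10563. The cyclic AMP response element TGACGTCA was in 4 of 103 (3.88%), against 2.78% of all, and the AP-1 site TGAGTCA in 5 of 103 (4.85%), against 3.01% of all. The CArG box, the site of serum response factor, was in 2 of 103 (1.94%) and in 1.18% of all. A match is a description of these letters and not of binding. The windows below belong to 3 genes with kB matches and 1 with the cyclic AMP element, and are printed 5′ to 3′ with the matches in capitals. That of Tnfaip3 lies at chr1:15543980-15544229 (minus strand), with 3 matches. That of Cxcl2 lies at chr14:17467256-17467505 (minus strand), with 2 overlapping matches. That of Nfkbiz lies at chr11:58251471-58251720 (plus strand), and that of Dusp1 at chr10:17184603-17184852 (plus strand), with 1 match each. These 4 genes were chosen after their values were seen.
Tnfaip3: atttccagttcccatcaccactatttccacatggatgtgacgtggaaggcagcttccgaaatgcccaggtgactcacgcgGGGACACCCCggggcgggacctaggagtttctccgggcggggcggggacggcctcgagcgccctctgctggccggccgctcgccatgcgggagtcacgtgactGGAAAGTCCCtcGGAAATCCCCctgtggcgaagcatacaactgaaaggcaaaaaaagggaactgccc
Cxcl2: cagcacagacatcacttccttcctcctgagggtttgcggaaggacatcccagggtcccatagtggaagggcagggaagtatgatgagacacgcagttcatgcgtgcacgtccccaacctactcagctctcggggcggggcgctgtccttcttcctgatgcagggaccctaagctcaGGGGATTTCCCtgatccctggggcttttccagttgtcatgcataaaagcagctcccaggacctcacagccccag
Nfkbiz: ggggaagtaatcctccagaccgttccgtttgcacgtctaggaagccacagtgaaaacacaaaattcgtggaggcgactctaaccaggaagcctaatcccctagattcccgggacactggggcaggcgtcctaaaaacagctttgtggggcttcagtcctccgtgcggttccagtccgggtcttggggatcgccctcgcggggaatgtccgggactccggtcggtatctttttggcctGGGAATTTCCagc
Dusp1: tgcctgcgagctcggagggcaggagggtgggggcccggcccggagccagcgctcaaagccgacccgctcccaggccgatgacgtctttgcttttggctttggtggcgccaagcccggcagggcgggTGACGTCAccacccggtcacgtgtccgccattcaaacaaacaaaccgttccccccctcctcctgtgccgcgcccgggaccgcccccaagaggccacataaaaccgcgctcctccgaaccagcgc

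The genes that define resting microglia were not called in either direction, 0 of 29 tested, with a median log2 difference of -0.16. Of all tested genes, 6.46% were called higher and 0.85% lower, so few calls are due in a list of this size. Among the 29, 25 were below 0, and 5 were lower with no overlap between groups, against 14.3% of all tested genes. P2ry12, the purinergic receptor of surveying microglia, was at 1216, 1064 and 1369 CPM in HuMSC125 and 1371, 1519 and 1371 CPM in injured libraries (-0.22 ± 0.27). Csf1r, the receptor on which microglial survival depends, was at 4218, 3985 and 5427 CPM against 5439, 6519.7 and 5289 CPM (-0.34 ± 0.14, adjusted p 0.20 in edgeR). For both genes replicates 1 and 2 were the lowest HuMSC125 libraries, while replicate 3 was level with the lowest injured libraries for P2ry12 and among the injured libraries for Csf1r. The values of Tmem119 and Cx3cr1 were -0.20 ± 0.28 and -0.34 ± 0.17. Interferon response genes (0 of 19), complement and phagocytosis genes (0 of 28), antigen presentation genes (0 of 18), oxidative phosphorylation genes (0 of 21) and ribosomal protein genes (0 of 25) were also not called, against the same shares. In the cell cycle list Kif23, a motor of cytokinesis, was called lower, 1 of 38. All 38 were below 0, with a median of -0.34, and 14 were lower with no overlap between groups, against 14.3% of all tested genes. The median was -0.10 without the neuron-rich libraries and 0.00057 with the neuron covariate. Mki67 was at 119, 126 and 235 CPM in HuMSC125 and 228, 238 and 217 CPM in injured libraries. Mki67 was thus below the injured libraries in replicates 1 and 2 and within their range in replicate 3, at -0.51 ± 0.20. In the repair and anti-inflammatory list 1 of 13 tested genes, Klf4, was called lower, against 0.85% of all tested genes, and 0 rose. The median of that list was -0.27, with 10 of 13 below 0. Of its other members, Arg1 (2.31 ± 1.01), Mrc1 (-0.27 ± 0.18) and Igf1 (-0.20 ± 0.24) did not pass the test. Ankrd55 was at 12.2, 12.3 and 14.0 CPM in HuMSC125 and 8.54, 9.56 and 14.1 CPM in injured libraries, both far under the 57.8, 64.6 and 68.0 CPM of control libraries.

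**Figure D5:**
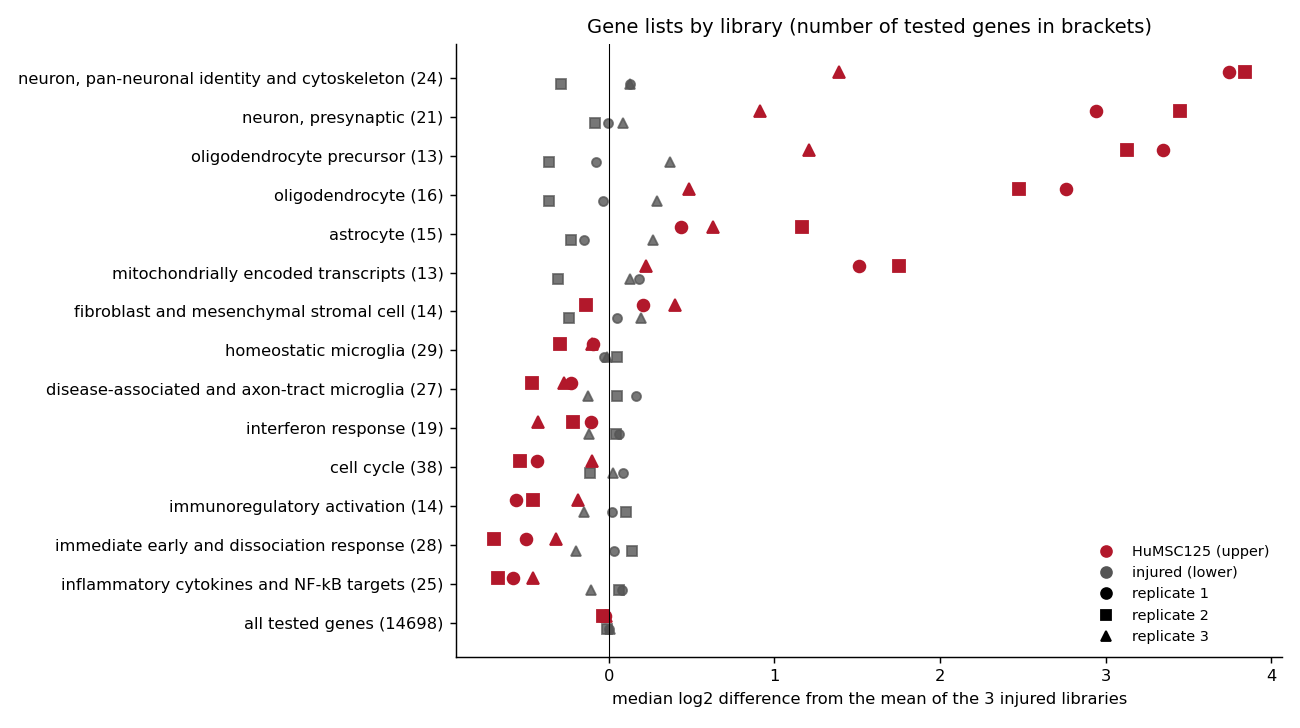
Median log2 difference of each gene list from the mean of the 3 injured libraries (horizontal), per library, with HuMSC125 above and injured below in each row and the number of tested genes in brackets. Neuron and oligodendrocyte lists are split between replicates 1 and 2 and replicate 3 (pan-neuronal 3.74, 3.84 and 1.39), while the NF-kB list lies at -0.58, -0.67 and -0.46.

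A small set of higher genes did not follow the neuron level. Among the 949, 11 had a log2 difference in replicate 3 of at least 0.8 of that in replicates 1 and 2, and 4 of these, Fabp4, Car3, Plin1 and Plin4, are abundant in fat cells, a group noticed after the values were seen. The others were Gpr149, Ncan, Tmem45b, AABR07001910.1, Aldh1a1, Rbp4 and Ccn5. Fabp4, the fatty acid binding protein of adipocytes, was at 14.5, 7.12 and 6.63 CPM in HuMSC125 and 0.616, 0.560 and 0.795 CPM in injured libraries (3.84 ± 1.06, adjusted p 0.0423 in edgeR). Car3, a carbonic anhydrase abundant in fat and muscle, was at 10.4, 8.61 and 5.80 CPM against 0.616, 0.531 and 0.795 CPM. Plin1, a lipid droplet coat protein, was at 0.998, 0.359 and 0.690 CPM in HuMSC125 and 0.0385, 0 and 0 CPM in injured libraries. Plin4, of the same family, had 12, 9 and 18 counts in HuMSC125 and 0 in all injured libraries, at least 16.3-fold higher against a floor of 3 counts over the injured group. Cidec, which fuses lipid droplets, also rose, while the adipokines Adipoq (2.55 ± 0.86) and Lep (3.84 ± 1.32) did not pass the test. Pparg (0.58 ± 0.63) and Lpl (0.00 ± 0.22), both also active in adipocytes, did not pass the test either.

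Across the experiment Fabp4 and Car3 were high in most libraries from pups given cells. Fabp4 was at 0.917, 0.937 and 0.746 CPM in control libraries and 0.616, 0.560 and 0.795 CPM in injured libraries. It was at 0.381, 0.468 and 16.5 CPM in HuMSC20, 8.81, 12.9 and 9.14 CPM in HuMSC50 and 14.5, 7.12 and 6.63 CPM in HuMSC125 libraries. Of the 9 libraries with cells by vein, 2 were at the injured level of Fabp4, and the neuron-rich HuMSC20 replicate 1 was one of them. Car3 gave the same split, with 0.796, 0.468 and 11.1 CPM in HuMSC20 and 6.25, 8.94 and 7.65 CPM in HuMSC50. Without the neuron-rich libraries the difference between HuMSC125 and injured was 3.35 for Fabp4 and 3.18 for Car3, and neither was called. The summed level of the fibroblast and stromal cell list was 733, 539 and 829 CPM in HuMSC125 and 813, 714 and 785 CPM in injured libraries, so these groups overlapped.

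A pair of lipid synthesis genes also rose. Hmgcs1, an early enzyme of cholesterol synthesis, was at 216, 247 and 149 CPM in HuMSC125 and 120.4, 134 and 130 CPM in injured libraries (0.67 ± 0.17). Without the neuron-rich libraries its difference was 0.23. The median of the 24 tested cholesterol synthesis genes was 0.23. Scd, the stearoyl-CoA desaturase, was at 23.0, 19.2 and 15.8 CPM against 7.35, 7.05 and 8.98 CPM, with 1.31 ± 0.31, and 1.03 without those libraries. Of the 13 mitochondrially encoded genes, 1 (Mt-nd6) was called higher, near the 6.46% of all tested genes. The list median of 1.27 followed replicates 1 and 2, at 1.51, 1.75 and 0.22 for the 3 HuMSC125 libraries.

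The highest dose was also set against each lower dose. Both comparisons use the HuMSC125 libraries of the comparison with injured libraries. HuMSC125 against HuMSC50 gave 0 called genes of 14698 (0%) in edgeR, with 2599 genes whose unadjusted p was under 0.05, and 268 in DESeq2. HuMSC50 replicate 3 stood apart in its group, with 0.555% of counts in mitochondrially encoded genes, against 9.77% and 6.31% in replicates 1 and 2. HuMSC125 against HuMSC20 gave 0 (0%), with 542 at an unadjusted p under 0.05, and 4 in DESeq2. Without HuMSC125 replicate 3, the first comparison gave 1109 called genes, and without HuMSC20 replicate 3 the second gave 3. For Klf4 the levels were 189, 185 and 132 CPM in injured, 139, 150 and 128 CPM in HuMSC20, 87.3, 110 and 67.0 CPM in HuMSC50 and 55.1, 56.9 and 80.4 CPM in HuMSC125 libraries. HuMSC125 lay below HuMSC20 throughout and overlapped with HuMSC50, at -1.11 ± 0.19 and -0.45 ± 0.19. For Tnfaip3 the levels were 549, 645 and 443 CPM in injured, 435, 405 and 356 CPM in HuMSC20, 299, 442 and 487 CPM in HuMSC50 and 173, 198 and 307 CPM in HuMSC125 libraries. Socs3 was at 13.9, 14.4 and 14.9 CPM in HuMSC50, within the range of HuMSC125, with a difference of 0.05 ± 0.17. Over the 125 lower genes, the median difference from injured was -0.29 in HuMSC20 and -0.31 in HuMSC50, with 122 and 114 genes on the same side. These comparisons share the injured libraries. The same genes had a median of -0.15 in control relative to injured libraries, with 96 of 125 on the same side.

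The effect of 125 M cells per kg by vein was compared with that by the nose at the same age, as the difference of both effects in 1 fit of 30 libraries. It was more positive by vein for 364 of 14851 tested genes (2.45%) and more negative for 43 (0.29%). The first group held 13 of 24 pan-neuronal and 10 of 22 axonal genes. The pan-neuronal median was 3.43 by vein and 0.04 by the nose, and intranasal libraries held 0.0902% to 0.117% of counts in neuron lists. Kif1a differed by 5.31 ± 0.94 between routes, with 4.82 by vein and -0.49 by the nose. Among the 43, Pdk4, a kinase that slows glucose oxidation, differed by -1.11 ± 0.25, with -0.98 by vein and 0.13 by the nose. The 43 also held 3 members of the cell cycle list, and the median of that list was -0.33 by vein and 0.30 by the nose. Klf4 differed by -0.98 ± 0.26 (adjusted p 0.0409 in edgeR), with -1.38 by vein and -0.40 by the nose. None of the 26 tested NF-kB list genes was called, and Tnfaip3 and Il1b had -1.26 and -0.81 by vein and -0.62 and -0.40 by the nose. The routes were sequenced in separate runs, per the labels, so route and run cannot be told apart beyond shifts that both groups of a run share. Without intravenous HuMSC125 replicate 3 the count was 1450, and without any other single library of the 4 groups it was 0.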

How the data were processed

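RNA of CD11b/c-enriched brain cells was sequenced as polyA libraries from 100 ng of total RNA and read 75 bp from 1 end, as the labels' protocols state. The authors deposited a table of unnormalized whole-number counts, 1 row per gene. The submitters' processing notes name HTSeq 0.5.3, STAR 2.7.2d, DESeq2 1.8.1 and SAMtools, without an order. Genome build and annotation are not given in the sources used here, nor is the treatment of strand and shared reads, so genes with near-identical copies are uncertain.

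One edgeR model (version 4.0.16, with limma 3.58.1 in R 4.3.3) held the 15 libraries of the P7 intravenous experiment and 5 group means. It used TMM scaling, filterByExpr with a minimum count of 10 and a minimum total of 15, and quasi-likelihood F tests, with p-values adjusted by Benjamini-Hochberg over all 14698 genes and called under 0.05. Their total counts ran from 13.4 to 34.3 M, and no pair of libraries was a duplicate. The route difference came from 30 libraries of both P7 experiments with 10 group means. DESeq2 1.42.0 was an alternative. Log2 CPM used a prior count of 2, and the SE is the log2 difference over the square root of F. The code was checked on simulated data.

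Members and lists (41 lists, 723 genes, 692 matched) were chosen with earlier results of these data known. Named genes are the up to 15 largest rises and falls among called genes with non-overlapping groups, a mean log2 CPM of at least 1 and a settled symbol, up to 4 members of each list by p, a fixed set of microglial genes, and up to 10 each way by p in the route comparison. Those said to be chosen after their values were seen are exceptions. Tnf did not pass the filter. Alternatives were other scalings and filters, DESeq2, the replicate number as a block, the neuron level as covariate, the 6 libraries alone and left-out libraries. Scaling by homeostatic microglia counts was added after seeing the data.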

Additional observations from a re-analysis of the deposited data

Results flagged for a closer look

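The effect of 125 M cells per kg on the P7 libraries differed between routes for 407 genes by a test of the difference itself (edgeR, interaction of route and treatment), 364 more positive by vein and 43 more negative. Of the genes more positive by vein with the smallest p, the difference was 5.31 for Kif1a, 4.70 for Kif5c, 4.80 for Kif5a, 5.05 for Nrsn1 and 4.92 for Ank2 on the log2 scale, all of them genes of neurons. Of those more negative by vein, it was -1.11 for Pdk4, -0.92 for Exo1, -1.002 for Ccnf, -0.78 for Dusp6 and -0.97 for Kif18b. For Exo1, which acts in DNA repair, the effect was -0.55 by vein and 0.37 by the nose, for Ccnf, a cyclin, -0.40 and 0.61, and for Kif18b, a mitotic motor, -0.47 and 0.50. Neuron list genes took 0.242% to 1.04% of counts in intravenous HuMSC125 libraries and 0.106% to 0.116% in intranasal HuMSC125 libraries. With the pan-neuronal level as a covariate no route difference was called. That covariate overlaps with the grouping, so the fit is no independent check. Its lowest value in intravenous HuMSC125 libraries (mean log2 CPM 2.79) lies above its highest in intranasal HuMSC125 libraries (1.39). The cause of these differences was not tested.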

How the results depend on the processing

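Of 1074 called genes in HuMSC125 against injured libraries, DESeq2 gave 1609, RLE size factors 1097, no filter 1222, and scaling by homeostatic genes, added after seeing the data, 1160 (1120 higher, 40 lower). The 6 libraries alone gave 673. With the neuron covariate and without the 3 neuron-rich libraries, the counts were 0 for all genes, for the NF-kB and immediate early members that fell (15), for the oligodendrocyte lineage members that rose (20) and for the route difference (407), and without those libraries 0 for the neuron list members (94). DESeq2 gave 874 genes for the route difference, 268 for HuMSC125 against HuMSC50 and 4 against HuMSC20, which were 0 in edgeR. Leaving out 1 library at a time gave 0 to 2127 called genes against injured, 0 to 116 neuron list members, 0 to 22 NF-kB and immediate early members, 0 to 23 oligodendrocyte lineage members, 0 to 1109 genes against HuMSC50, 0 to 3 against HuMSC20 and 0 to 1450 for the route difference. The highest counts came without HuMSC125 replicate 3, except against HuMSC20, where it was HuMSC20 replicate 3. With the neuron covariate 10 named genes changed sign, at -0.21 for Mag, -0.13 for Cplx2, -0.0102 for Camk2a, -0.37 for Gad1, -0.29 for Dlx1, -0.0937 for Sox2, -0.0328 for Cdh2, -0.0549 for C1ql1, -0.0774 for Vcan and -0.0899 for Mbp. The cause of these changes was not tested. Depth was 13.4 M counts or more, and genes with a few counts per library, such as Plin1 and Plin4, rest on little.

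With the replicate number as a replicate block, 1010 genes were called against injured and 436 for the route difference. The numbers did not pair the samples, as the correlation of deviations between same-numbered HuMSC125 and injured libraries was 0.08, -0.12 and -0.27.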
